A study of Homo sapiens with 6 samples.

Results

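The 59 genes described here encode eukaryotic translation initiation factors (names starting EIF), elongation factors (names starting EEF) and proteins named after them. The rule uses names and no measured value, although it was set with earlier results of these data known. It takes every gene name in the deposited H3K4me3 peak lists or promoter tables that begins with EIF or EEF and a digit, antisense names left out, which gives 59 of 16500 names. The data come from BE(2)-C, an established human neuroblastoma cell line that carries extra copies of MYCN, the gene of the transcription factor N-Myc. Cells received a control siRNA or WDR5 siRNA-1, which targets a core subunit of the enzyme complexes that methylate lysine 4 of histone H3, for 24 hours. H3K4me3, the trimethylated form of that residue, marks active promoters and was immunoprecipitated and sequenced (ChIP-seq) in 1 library per siRNA. IgG and input libraries were also made for each siRNA and were not used here.

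Most of the names encode translation factors, with exceptions that the name rule brings in. The 4 EIF2AK genes and EEF2K encode kinases that inhibit translation, and the EIF4EBP genes and EIF4ENIF1 encode proteins that bind eIF4E. EIF4A3 encodes the helicase of the exon junction complex, and EEF1E1 encodes a protein of the aminoacyl-tRNA synthetase complex. EIF1AD only resembles eIF1A, and EEF1DP3 is a pseudogene. The lists hold no peak height or read number, so each gene has only a call (listed or not listed) per library, and with 1 library per siRNA there is no replicate error and no test. The depth behind the calls is unknown. Intervals below are exact (Clopper-Pearson) 95% intervals over genes. They take genes as independent and hold no error between libraries or replicates. Of the neuroblastoma markers PHOX2A, HAND2, GATA3, ISL1, DBH and TH, all 6 were listed with control siRNA and 4 (all but DBH and TH) with WDR5 siRNA, while 1 of 8 markers of other cell types (COL1A1) was listed with control siRNA.

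Translation starts when eIF2 brings the initiator tRNA to the small ribosomal subunit, held there with eIF1, eIF1A, eIF3 and eIF5, while eIF4F (the cap-binding protein eIF4E, the scaffold eIF4G and the helicase eIF4A) recruits the mRNA. The exchange factor eIF2B recharges eIF2 with GTP, and the eIF2 kinases block that step under stress. During elongation eEF1A delivers aminoacyl-tRNAs, the eEF1B subunits recharge it, and eEF2 moves the ribosome along. MYC-family proteins are known as activators of genes for ribosomes and translation factors, and they bind DNA at E-boxes.

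With control siRNA, an H3K4me3 peak within 1 kb of the start site was listed for all 59 genes, beside 82.5% of all names. With WDR5 siRNA it was listed for 58 of them, beside 71.9% of all names. The deposited promoter tables sort promoters into N-Myc-binding and non-binding ones. The 21 genes in neither table are members only because a peak list names them, so a call was fixed for them by the choice of names. The other 38 could have been without a peak, and all 38 had one with control siRNA: 31 of 31 N-Myc-binding promoters, beside 94.9% of that class, and 7 of 7 non-binding promoters, beside 58.0% of that class. The exception, EIF4EBP3, made 1 of 59 genes control-only (1.69%, interval 0.0429 to 9.09%), against 13.5% of all 13618 names in the control list. No factor gene was listed only with WDR5 siRNA (0 of 58, interval up to 6.16%), where 0.817% of all WDR5 siRNA names were. For the 58 genes listed in both, a difference in H3K4me3 level between the libraries was not tested, since only calls are given.

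The calls were the same in both libraries across the core complexes. The 3 eIF2 subunit genes (EIF2S1, EIF2S2, EIF2S3), the 5 eIF2B subunit genes (EIF2B1 to EIF2B5) and the 12 eIF3 subunit genes (EIF3A, EIF3B and EIF3D to EIF3M) were listed in both. For the eIF3 genes a peak in at least 1 library was fixed by the choice of names. EIF3C and EIF4A1 were named in neither peak list and in neither promoter table, so they are not members here. Whether the names used for calling include these genes is unknown. EIF1, EIF1B, EIF1AX and EIF5, which act in start codon selection, were also listed in both libraries. So were EIF5B and EIF6, which act in joining of the ribosomal subunits. EIF2A and EIF2D, whose products can deliver initiator tRNA without eIF2, were listed in both as well. All 4 eIF2 kinase genes were listed in both: EIF2AK1 (HRI, sensing haem), EIF2AK2 (PKR, sensing double-stranded RNA), EIF2AK3 (PERK, sensing unfolded proteins) and EIF2AK4 (GCN2, sensing uncharged tRNA).

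Among genes named for eIF4, the 4 cap-binding genes EIF4E, EIF4E1B, EIF4E2 and EIF4E3 were listed in both libraries. So were the 7 helicase and scaffold genes EIF4A2, EIF4A3, EIF4B, EIF4H, EIF4G1, EIF4G2 and EIF4G3. The 6 elongation genes EEF1A1, EEF1A2, EEF1B2, EEF1D, EEF1G and EEF2 were too, as were EIF5A and EIF5A2, the pair of genes whose protein carries the modified residue hypusine. EIF5A was the 1 member with repeated rows. EEF2K, EEF1E1, EIF1AD and the pseudogene EEF1DP3 completed the list of genes found in both.

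**Figure D1:**
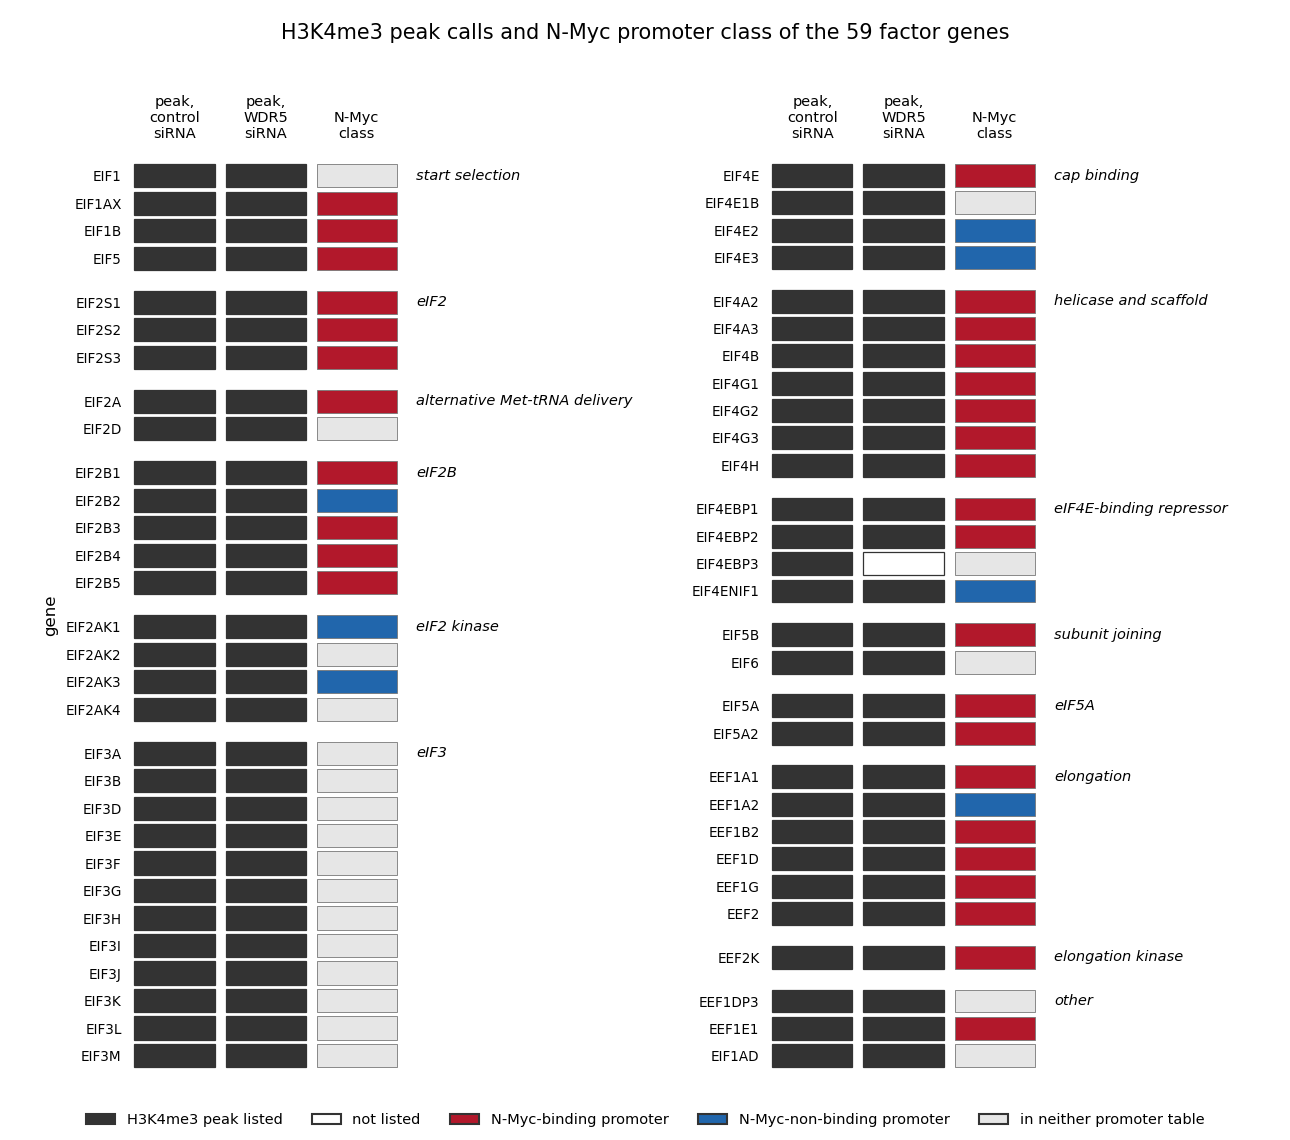
Each row is 1 of the 59 genes, grouped by role. The first and second tiles show whether an H3K4me3 peak was listed with control and with WDR5 siRNA, and the third shows the N-Myc class of the promoter. EIF4EBP3 has the only open tile, and the 12 eIF3 genes are in neither promoter table.

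EIF4EBP3 encodes the third of the 4E-BP repressors, which hold eIF4E away from eIF4G until mTOR phosphorylates them. Its name was in the control list and missing from the WDR5 siRNA list, whereas EIF4EBP1, EIF4EBP2 and EIF4ENIF1, which encodes the eIF4E transporter, were in both. The control list runs in genome order, and the names on either side of EIF4EBP3 were ANKHD1-EIF4EBP3 and SRA1, both listed in both libraries. ANKHD1-EIF4EBP3 names a readthrough transcript that starts at the upstream gene ANKHD1 and runs into EIF4EBP3, so its peak lies at another start site. PFDN1, 4 names earlier in the list, was also control-only. EIF4EBP3 is in neither promoter table, so no N-Myc class is given for it here.

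The second deposited readout sorts promoters into 3254 that bind N-Myc and 6331 that do not. Factor genes were mostly in the binding class. Of the 59 genes, 38 were in one of the tables (64.4%, beside 49.7% of all control names), and 31 of these 38 were N-Myc-binding (81.6%, interval 65.7 to 92.3%). By comparison, 33.9% of all promoters in the pair of tables were binding. All 38 had a peak in each library. Among promoters with a control siRNA peak 45.7% were binding (3087 of 6762), and among those with a peak in both libraries 49.5% were. The remaining 21 genes were in neither table, among them all 12 eIF3 genes, EIF1, EIF2D, EIF6, EIF4E1B, EIF4EBP3, EIF2AK2, EIF2AK4, EIF1AD and EEF1DP3. None of the 21 was found there under an unambiguous RefSeq synonym.

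The 7 members in the non-binding table were EIF2B2, EIF2AK1, EIF2AK3, EIF4E2, EIF4E3, EIF4ENIF1 and EEF1A2. They included both of the eIF2 kinases that had a class, HRI and PERK. Within families, the main form and its relatives could fall in different classes. EEF1A1, the form of eEF1A made in most tissues, was binding (start site at chromosome 6, position 74230755, hg19), and EEF1A2, the form of neurons and muscle, was non-binding (chromosome 20, position 62130668). EIF4E was binding (chromosome 4, position 99850243), whereas EIF4E2 (chromosome 2, position 233415357) and EIF4E3 (chromosome 3, position 71774526), which encode relatives of the cap-binding protein, were not. EIF2B2 was the only eIF2B gene outside the binding class, the other 4 being binding.

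All 3 eIF2 genes, all 7 helicase and scaffold genes, the pair EIF5A and EIF5A2, and the repressor genes EIF4EBP1 and EIF4EBP2 were N-Myc-binding. So were 5 of 6 elongation genes and EEF2K, whose kinase switches eEF2 off. Of the 31 classed here as initiation and elongation factors, EIF4A3 and EIF4E2 included, 27 were binding (87.1%, interval 70.2 to 96.4%). Among the kinases, repressors and others 4 of 7 were (57.1%, interval 18.4 to 90.1%). These intervals overlap, and the difference was not tested.

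Other gene groups of the translation machinery had similar or higher shares, counted the same way among promoters with a control peak. Cytosolic ribosomal protein genes had 58 of 59 in the binding class (98.3%, interval 90.9 to 100%), mitochondrial ribosomal protein genes 43 of 56 (76.8%, interval 63.6 to 87.0%) and aminoacyl-tRNA synthetase genes 23 of 30 (76.7%, interval 57.7 to 90.1%). The interval of the factor genes (65.7 to 92.3%) held the shares of the mitochondrial ribosomal protein and synthetase genes. The share of the cytosolic ribosomal protein genes lay above it, although the intervals overlapped. The differences were not tested.

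**Figure D2:**
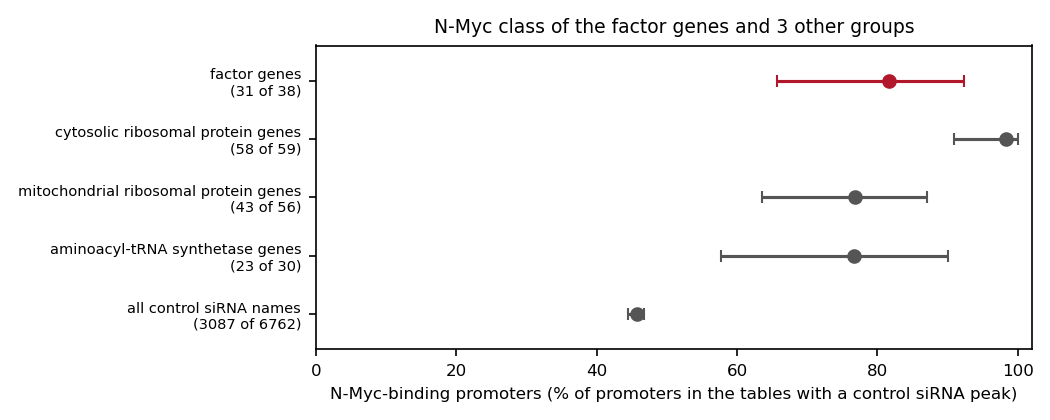
Points give the percentage of promoters in the N-Myc-binding table, among promoters of each group that are in either table and have a control siRNA peak, and bars give the exact 95% interval over genes. The factor genes (81.6%) lie near the mitochondrial ribosomal protein and synthetase genes (76.8% and 76.7%) and above all control siRNA names (45.7%).

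The peak calls can be read within each class. None of the 31 N-Myc-binding factor genes was control-only (interval up to 11.2%), beside 4.18% of all N-Myc-binding promoters with a control peak. None of the 7 non-binding ones was either (interval up to 41.0%), beside 17.9% of that class. Among the 21 that no table holds, 1 was control-only (4.76%, interval 0.120 to 23.8%), beside 15.5% of all such names. The interval holds the background share in the binding class, the non-binding class and the group without a class alike, so within a class these numbers do not set the factor genes apart.

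RefSeq promoter windows (build GRCh38.p14, 250 bases before to 50 after each annotated start) were matched by symbol for 48 of the 59 genes. They were searched for the canonical E-box CACGTG, which reads the same on both strands, because the N-Myc class bears on it. It was present in 13 of 48 factor genes (27.1%, interval 15.3 to 41.8%), beside 12.5% of genes in the control list and 8.78% of all genes in the sequence table. Some genes have several windows, and counted by window the share was 20.3%, beside 9.46% for the control list. Of the 28 N-Myc-binding factor genes with a window, 9 held it (32.1%, interval 15.9 to 52.4%), beside 18.4% of all N-Myc-binding genes, a share inside that interval. Of the 5 non-binding ones 0 did (interval up to 52.2%), beside 8.0% of that class. Cytosolic ribosomal protein genes held it in 5 of 64 (7.81%, interval 2.59 to 17.3%). With the related motifs CATGTG and CACGCG also counted, on both strands, 20 of 48 factor genes held at least 1 (41.7%, interval 27.6 to 56.8%). Of genes in the control list 37.9% did, a share inside that interval. Any of the 3 motifs was the planned main count. Taken alone, CACGCG was held by 16.7% of factor genes (interval 7.48 to 30.2%), beside 23.6% of genes in the control list. CATGTG was held by 10.4% (interval 3.47 to 22.7%), beside 8.76%. A match describes letters in the window and is not a measured binding site.

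The E-boxes of 4 genes named for eIF4 and of EIF4EBP3 are shown with 10 bases either side, 5′ to 3′ on the gene's strand, with CACGTG in capitals. EIF4E and EIF4G1 each hold a pair of them, EIF4A3, which encodes the helicase of the exon junction complex, and EIF4B, which encodes a cofactor of eIF4A, hold 1 each, and EIF4EBP3, the control-only gene, holds 1 just before its start.
EIF4E (chr4:98929343-98929368, minus strand): acccatcggcCACGTGaccagtcctt
EIF4E (chr4:98929190-98929215, minus strand): acatatccgtCACGTGgccagaagct
EIF4G1 (chr3:184314452-184314477, plus strand): ctgtggctgtCACGTGacggggcggg
EIF4G1 (chr3:184314529-184314554, plus strand): ctgcgccggtCACGTGggggcgccgg
EIF4A3 (chr17:80147234-80147259, minus strand): agttccctttCACGTGacgaagagtg
EIF4B (chr12:53006424-53006449, plus strand): ccgctataatCACGTGattgcctcat
EIF4EBP3 (chr5:140547639-140547664, plus strand): ccagcagctgCACGTGgtcggctgag

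Over the 13 genes there were 16 E-boxes, and 3 genes (EIF4E, EIF4G1 and EIF5A2) held 2. All 16 lay before the annotated start, from 225 bases (EIF4E) to 13 bases (EIF4EBP3) ahead of it, as did 90.4% of such sites for genes in the control list, since most of the window lies there. From 100 bases before the start onward, 7 of 48 factor genes held a CACGTG (14.6%, interval 6.07 to 27.8%), beside 7.79% of genes in the control list, a share inside that interval. The other genes with an E-box were EIF1B, EIF2B3, EIF4H, EEF2K, EIF2AK2, EIF3F and EIF3K. EIF3F and EIF3K are eIF3 genes, for which the promoter tables give no class.

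**Figure D3:**
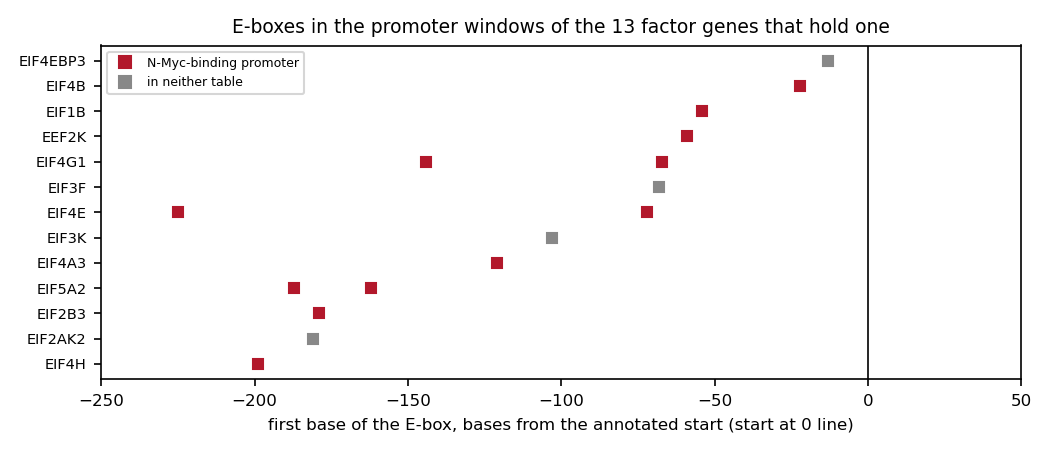
Squares mark the first base of each CACGTG E-box in the promoter windows of the 13 factor genes that hold one, by distance in bases from the annotated start and coloured by N-Myc class. All 16 lie before the start, and that of EIF4EBP3 is nearest to it.

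The same windows were read for a start known from ribosomal protein genes. Messenger RNAs with a terminal oligopyrimidine (TOP) tract begin with C and a run of C or T, and mTOR controls their translation. A start with C and at least 4 further C or T on the gene's strand was found in 12 of 48 factor genes (25%, interval 13.6 to 39.6%), beside 7.22% of genes in the control list and 5.14% of all genes. For cytosolic ribosomal protein genes it was 46 of 64 (71.9%, interval 59.2 to 82.4%). The 12 were EEF1A1, EEF1B2, EEF2, EIF2A, EIF2D, EIF2S3, EIF3D, EIF3F, EIF3K, EIF3M, EIF4A2 and EIF4B. Of the N-Myc-binding factor genes 7 of 28 had such a start (interval 10.7 to 44.9%), beside 8.86% of all N-Myc-binding genes. Of the non-binding ones 0 of 5 did (interval up to 52.2%), beside 5.44% of that class, and of those without a class 5 of 15 did (33.3%, interval 11.8 to 61.6%). Only EIF3F, EIF3K and EIF4B had both the pyrimidine start and CACGTG.

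Examples are shown with 6 bases before the annotated start and 18 from it, with the run of C or T that begins at the start in capitals. They compare the elongation genes with a helicase gene and an eIF3 gene.
EEF1A1 (chr6:73521015-73521038, minus strand): aacgttCTTTTTCgcaacgggttt
EEF1B2 (chr2:206159889-206159912, plus strand): tcgggtCCTTTTTCCTCTCTTCag
EEF2 (chr19:3985446-3985469, minus strand): agcgttCTCTTCCgccgtcgtcgc
EIF4A2 (chr3:186783571-186783594, plus strand): cgctgtCTTTTCagtcgggcgctg
EIF3F (chr11:7987331-7987354, plus strand): cgcctcCTTCTTTCTCgacaagat
The run was 16 bases long in EEF1B2, 10 in EIF3F, 7 in EEF1A1 and EEF2, and 6 in EIF4A2. The number of CpG dinucleotides per window, averaged over the windows of each gene, did not set the factor genes apart. Its median over genes was 27.5, beside 26.0 for genes in the control list.

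**Figure D4:**
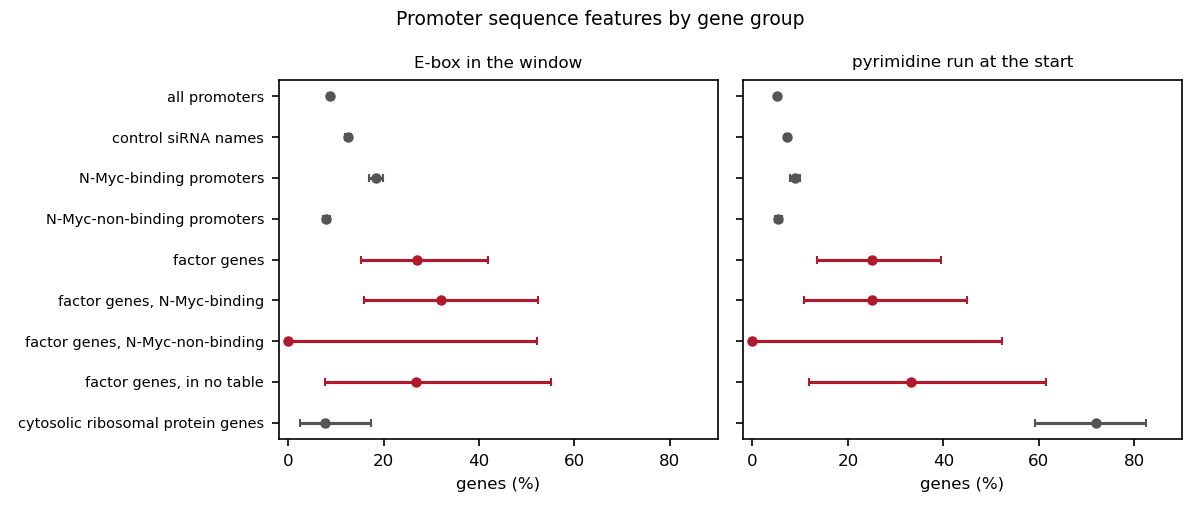
Points give the percentage of genes whose RefSeq promoter window holds CACGTG (left) or has a pyrimidine run at the annotated start (right). Bars give the exact 95% interval over genes. Factor genes (red) held CACGTG in 27.1% and a pyrimidine start in 25%, whereas cytosolic ribosomal protein genes held them in 7.81% and 71.9%.

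The promoter tables are named as quantifying H3K4me3 but hold no values, and no source used here gives the rule behind their row order. The order runs with the peak calls. In the binding table all 325 promoters in the first 10% of rows were listed in both libraries, beside 528 of 814 in the last 25%. In the non-binding table these counts were 633 of 633 and 23 of 1583. Row position is thus not a readout independent of the calls. Factor genes were spread through most of the N-Myc-binding table. Their median position was 48.1% of the table length (range 0.768 to 80.7%), beside 45.6% for all binding promoters listed in both libraries. Of the 31 genes, 7 lay in the first 10% of rows (22.6%), beside 11.0% of the binding promoters listed in both. In the last 25% lay 2 (6.45%), beside 17.8%. These shares rest on few genes and have no interval, and the differences were not tested. The first gene was EIF2B4, at row 25, followed by EIF4A3 at row 76, EIF4EBP1 at row 108 and EIF5 at row 110. Next came EEF1A1 at row 207, EIF4H at row 242 and EEF2K at row 276. The last were EIF2B3 at row 2606 and EEF1G at row 2627 (start site at chromosome 11, position 62341460).

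Subunits of 1 complex did not share a place in that order. The eIF2B genes ran from EIF2B4 at 0.768% through EIF2B5 at 54.7% and EIF2B1 at 62.3% to EIF2B3 at 80.1%. The eIF2 genes lay at 13.4% (EIF2S2), 57.9% (EIF2S1) and 69.9% (EIF2S3). Among scaffold genes EIF4G2 lay at 18.1%, EIF4G1 at 27.9% and EIF4G3 at 56.7%. The binding elongation genes ran from EEF1A1 at 6.36% to EEF1G at 80.7%, with EEF2 at 52.5%.

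In the non-binding table all 7 factor genes lay in the first 25% of rows, where 52.4% of the non-binding promoters listed in both also lay. Their median position was 15.9% (range 3.33 to 23.9%), beside 23.9% for those promoters. EIF4ENIF1 came first, at row 211 (chromosome 22, position 31885547), and EIF4E3 last, at row 1512.

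**Figure D5:**
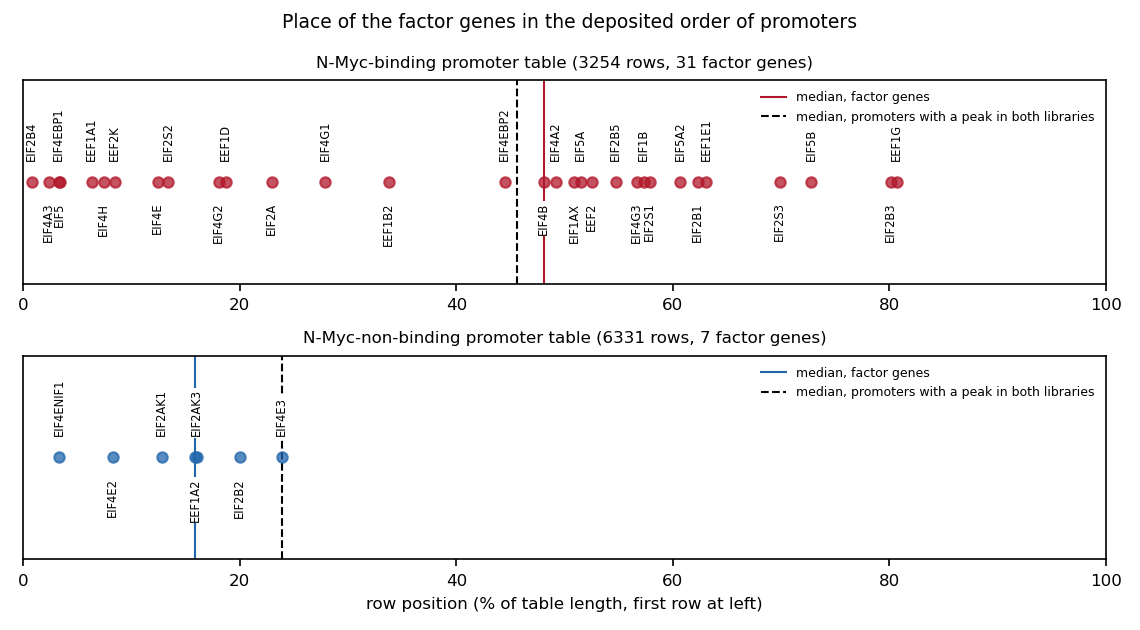
Each dot is a factor gene at its row in the N-Myc-binding table (top) or the N-Myc-non-binding table (bottom), in per cent of the table length. The solid line is the median of the factor genes and the dashed line that of all promoters of the class with a peak in both libraries. Binding members run from EIF2B4 to EEF1G, and the 7 non-binding members all lie left of 25%.

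Of the 38 factor genes with a position, 6 had another listed start site within 1000 bp (15.8%, interval 6.02 to 31.3%), beside 8.40% of all promoters in the tables with a control peak, a share inside that interval. All 6 were N-Myc-binding, which makes 6 of 31 members of that class (19.4%, interval 7.45 to 37.5%), beside 12.3% of all N-Myc-binding promoters, also inside the interval. The partners, all N-Myc-binding too, were as follows: EIF2B1 with GTF2H3 (37 bp apart), EEF1D with TIGD5 (229 bp), EIF2S1 with ATP6V1D (314 bp), EEF1B2 with NDUFS1 (400 bp), EIF2B4 with SNX17 (444 bp) and EIF5B with TXNDC9 (974 bp). All 6 partners were listed in both libraries. At such distances 1 peak can count for both genes, so these calls are not independent.

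The 38 genes lay on 17 chromosomes, and 7 were on chromosome 3 (18.4%, interval 7.74 to 34.3%), beside 6.57% of promoters in the tables with a control peak. They were EIF1B, EIF4E3, EIF2A, EIF5A2, EIF2B5, EIF4G1 and EIF4A2, a grouping noticed after the positions were seen. EIF2B5 (position 183852810), EIF4G1 (184032283) and EIF4A2 (186501361) lay within 2.65 Mb. All of them but EIF4E3 were N-Myc-binding.

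Other translation genes, in a list of 44 written from general knowledge of the pathway, were also mostly listed in both libraries. Of the 41 with a control peak, 40 were in both lists and 1 was control-only, beside 13.5% of all control names. Of the 44, 23 had an N-Myc-binding promoter and 7 a non-binding one, and the rest were in neither promoter table. Among all promoters with an N-Myc class, 33.9% were binding, and among those with a control siRNA peak 45.7% were. The control-only gene was MTRF1, a mitochondrial release factor gene with a non-binding promoter (chromosome 13, position 41837713). MCTS1, whose product helps recycle ribosomes and reinitiate, was listed only with WDR5 siRNA, from the non-binding table (chromosome X, position 119738552). PELO, a ribosome rescue factor gene, and LARP1, which encodes a protein that binds TOP mRNAs, were in neither list. All 6 of these 44 genes that act in modification of eIF5A and eEF2 (DHPS, DOHH, DPH1, DPH2, DPH3 and DPH5) were N-Myc-binding and listed in both. Termination and recycling genes, mitochondrial factors and helpers of initiation each had 3 binding and 2 non-binding promoters. The 6 signalling genes, MTOR among them, and the 4 genes of the integrated stress response, which acts through eIF2, were listed in both.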

How the data were processed

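H3K4me3 ChIP-seq was done on BE(2)-C cells, with 6 libraries in all (2 H3K4me3, 2 IgG, 2 input, 1 of each per siRNA), assigned to groups by their titles. Per the submitters' processing notes, BWA 0.7.12 and bedtools were used with build hg19, with no role stated. No source used here names the peak caller, its settings or the control it was given. The authors deposited names and positions in no measured unit. These are other values than levels: per the file headers, lists of genes with a peak within 1 kb of the start site per library (13712 control and 11942 WDR5 siRNA rows, 13618 and 11870 distinct names), and 2 promoter tables with a start site and a gene name each. The basis of the N-Myc classes is not stated in these sources.

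Lists and tables were joined by gene name, so a peak at another start site of a gene can count for it. Positions are the second coordinate of each deposited interval. All 59 names matched a RefSeq symbol. Promoter windows came from RefSeq (GRCh38.p14) and were not aligned to the hg19 positions. A gene with several windows counted as holding a motif if any window did. The members, roles and gene lists were chosen with earlier results of these data known. Every member is named under its role. Some markers are not reported here. The functions were tested on simulated data. Analyses ran in Python 3.11.15 with scipy 1.17.1, pandas 2.3.3 and numpy 2.4.6, and figures were drawn with matplotlib 3.10.9.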

Additional observations from a re-analysis of the deposited data

How the results depend on the processing

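No paired analysis was possible because each siRNA had 1 H3K4me3 library, and no replicate could be left out. Of 18 alternative settings, 6 took the same genes or only another unit and could not move a value (RefSeq synonyms, denominators that held the same genes, and row number in place of per cent). Of the other 12, 8 left the value within its interval over genes or within 1.5 times, and 4 did not. Counting only genes classed here as initiation and elongation factors left 0 control-only genes of 47, since EIF4EBP3 encodes a repressor. With all 59 members as the denominator, the N-Myc-binding share was 52.5%, because members in neither table enter it. Counting CACGTG alone gave 27.1% of genes, in place of 41.7% for any of the 3 motifs. Asking for 8 pyrimidines at the start, chosen after the data were seen, gave 10.4% of factor genes beside 2.81% of genes in the control list. Letting the start move by up to 2 bases, also chosen afterwards, gave 33.3% beside 16.3%. Counting each window in place of each gene and leaving out kinases and repressors from the N-Myc share were also added afterwards. A missing name is a missing call at unknown depth and does not show absence of H3K4me3.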

Other observations

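Factor genes also host small RNA genes. By RefSeq spans, 11 of the 59 genes hold 18 annotated small RNA genes, 14 of them snoRNAs, which guide chemical modification of ribosomal and other RNAs, and 4 microRNAs. EIF4A2 holds SNORD2, SNORA4, SNORA63, SNORA63B, SNORA81 and MIR1248, EEF1B2 holds SNORD51 and SNORA41, and EEF2 holds SNORD37. None of the 18 was listed under its own name in either library (0 of 18), while all 11 host genes were listed in both. The control list held 1 name starting SNORA or SNORD and 9 starting MIR in all, so the names used for calling bear on this count.

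The names around the factor genes in the control list were control-only about as often as any name. Within 5 names on either side of each of the 59 genes, 76 of 589 neighbouring entries were control-only (12.9%, with a name near more than 1 factor gene counted each time), beside 13.5% of all control names. For 44 of the 59 genes at least 1 such neighbour was control-only. EEF1D and EIF3H each had 4, which for EEF1D were MAFA, GSDMD, MROH6 and MAPK15.

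Names related to factor genes but outside the name rule were listed in both libraries. None of them is in a promoter table, so a peak in at least 1 library was fixed by the choice of names. Of all control names in neither table, 15.5% were control-only. The related names were the antisense names EIF1B-AS1 and EIF3J-AS1 and the readthrough names ANKHD1-EIF4EBP3 and SENP3-EIF4A1. AGO1 to AGO4, the argonaute genes once named EIF2C1 to EIF2C4, were the others.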
